A study of Rattus norvegicus with 9 samples.

Results

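Genes that mark the choroid plexus were followed in the thalamus of weanling male Wistar rats kept on chow or on powdered feed. The genes were Ttr, Folr1, Kl, Clic6, Otx2, Prlr and Enpp2, and every probe set that the platform annotation gives to 1 of them alone was taken. That gave 9 of the 31042 rat probe sets on the array, covering 6 of the 7 genes (6 of 14217 genes in all): 1 each for Ttr, Folr1, Kl and Enpp2, 2 for Otx2 and 3 for Prlr. Clic6, an intracellular chloride channel protein, had 0 such probe sets and was not analysed here.

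The study had 4 chow arrays and 5 powder arrays. Rats of 3 weeks of age were given powder for 2 days and were then assigned, with balanced weights, to a solid feed (chow) or to continued powder for 8 days. Each sample is labelled as 5 weeks old, and the labels mention 10 rats; 9 samples were analysed here. Chow requires mastication, powder little, and the study asked how a short period of mastication affects the thalamus. Both groups thus shared the powdered start, the strain and the sex. The labels do not say which animal each sample came from, so the spread behind each p-value is that between samples and may be technical in part.

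The choroid plexus is a folded epithelium inside the brain ventricles that secretes cerebrospinal fluid. The thalamus borders the third ventricle, and choroid plexus lies along its dorsal surface. Transthyretin, the product of Ttr, carries thyroid hormone and, with retinol-binding protein, retinol, and in the brain it is made chiefly by this epithelium. Folr1 moves folate into the cerebrospinal fluid, Kl encodes Klotho, a co-receptor for an endocrine fibroblast growth factor, and Otx2 is a homeobox transcription factor needed for the choroid plexus to form. Prlr encodes the prolactin receptor, and Enpp2 encodes autotaxin, an enzyme that makes lysophosphatidic acid and is also made by oligodendrocytes.

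No member passed the test on a probe set whose 9 values spanned 0.01 log2 units or more. Ttr varied widely from sample to sample in both groups, and its difference of 0.51 on the log2 scale, higher under chow, was smaller than the standard deviation within either diet. One of the 3 Prlr probe sets passed the test, with a difference of 0.378 thousandths of a log2 unit. Its 9 values together spanned 0.767 thousandths. Otx2 had one probe set with measurable variation, at -0.10, and it did not pass.

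All values are the authors' deposited log2 expression values, 1 per probe set and array, and differences are chow minus powder with the standard error from limma. A probe set was called when its Benjamini-Hochberg adjusted p, over all rat probe sets, was under 0.05. The deposited values of most probe sets hardly vary: for 26193 probe sets (84.4%) the 9 values spanned under 0.01 log2 units, with a median span of 0.475 thousandths of a log2 unit. Such probe sets are called narrow here and the others wide. Of the 9 member probe sets, 3 were wide (Ttr, 1 of Otx2 and 1 of Prlr) and 6 narrow. Of all rat probe sets 34.6% were called between the diets, 30.9% of the narrow ones and 54.9% of the wide ones, so the 1 call among 9 member probe sets was no larger a share than the background. The chow and powder arrays overlapped for each of the 9, where they did not overlap for 29.9% of all rat probe sets. Array medians lay between 7.391 and 7.396 on the chow arrays and between 7.398 and 7.402 on the powder arrays, without overlap. The mean deviation of narrow probe sets from their 9-array means was 0.0121 to 0.0308 thousandths on chow arrays. On powder arrays it was -0.0251 to -0.0081 thousandths. How far this shift between the diets enters the narrow calls was not tested. Correlations between arrays over all rat probe sets lay between 0.991 and 0.999. No detection calls were used here, so no level is described as present or absent.

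Ttr (probe set 1367598_at) stood at 8.45, 8.25, 9.53 and 8.23 on chow arrays 1 to 4, and at 9.09, 8.34, 8.33, 6.77 and 7.97 on powder arrays 1 to 5. The highest value was chow 3 and the next powder 1, powder 4 was the lowest by more than 1 log2 unit, and the groups overlapped. Ttr averaged 8.61 ± 0.617 on the 4 chow arrays and 8.10 ± 0.850 on the 5 powder arrays (mean ± SD). The difference was 0.51 ± 0.494 (adjusted p = 0.429, two-sided exact permutation p = 0.357 against a smallest possible p of 0.00794). In linear terms chow was 1.43-fold of powder, with a 95% interval from 0.641 to 3.18, so changes of either direction in that range could not be told from no change with these arrays. Without chow 3 the difference was 0.21 (adjusted p = 0.755), without powder 4 it was 0.18 (adjusted p = 0.722), and without powder 1 it was 0.76 (adjusted p = 0.249).

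**Figure D1:**
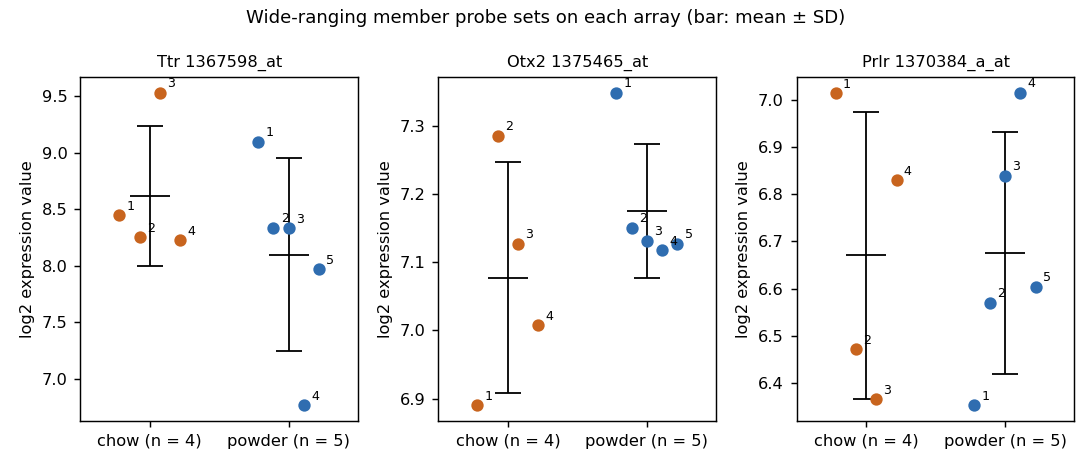
Log2 expression values of the 3 wide member probe sets on each array, with chow (n = 4) left of powder (n = 5), replicate numbers beside the points and bars for mean ± SD; each panel has its own vertical axis, which does not start at 0. Ttr runs from 6.77 on powder 4 to 9.53 on chow 3, and the diets overlap in all 3 panels.

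The 9 Ttr values covered 2.76 log2 units, a 6.78-fold range. Among the 14217 genes, each taken by its probe set of highest mean value, Ttr had the third widest span and the fifth largest standard deviation within diets (0.759, against a median of 0.0856 over the 2414 wide genes). That place depended on single arrays: it was rank 18 without powder 4, rank 9 without powder 1 and rank 4 to 6 without any other single array. In bulk tissue, fewer choroid plexus cells and less Ttr RNA per cell cannot be told apart.

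Otx2 had 2 probe sets. On the wide one (1375465_at) the values were 6.89, 7.28, 7.13 and 7.01 on chow arrays 1 to 4, and 7.35, 7.15, 7.13, 7.12 and 7.13 on powder arrays 1 to 5. Powder 1 was the highest of all arrays, the other powder arrays lay within a narrow band, and the chow arrays lay on both sides of that band. The means were 7.08 ± 0.169 under chow and 7.17 ± 0.0976 under powder (SD), a difference of -0.10 ± 0.0865 (adjusted p = 0.394, exact permutation p = 0.341). The narrow Otx2 probe set (1375394_at) differed by 0.161 ± 0.0593 thousandths of a log2 unit (adjusted p = 0.0698), in the other direction from the wide one, and neither was called.

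Of the 3 Prlr probe sets, 1370384_a_at was wide. It stood at 7.01, 6.47, 6.37 and 6.83 on chow arrays 1 to 4, and at 6.35, 6.57, 6.84, 7.02 and 6.60 on powder arrays 1 to 5. Both groups covered nearly the same range, and chow 3 and powder 1, the arrays with the highest Ttr, had the lowest values. The means were 6.67 ± 0.303 under chow and 6.68 ± 0.256 under powder (SD), a difference of -0.0058 ± 0.181 (adjusted p = 0.983) with a 95% interval from -0.43 to 0.42.

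The called Prlr probe set was the narrow 1369493_at. Relative to its mean over the 9 arrays, in thousandths of a log2 unit, it lay at 0.443, 0.241, -0.112 and 0.267 on chow arrays 1 to 4, and at -0.224, -0.222, -0.324, 0.0156 and -0.0846 on powder arrays 1 to 5. Chow 3 lay among the powder arrays, so the groups overlapped. The difference was 0.378 ± 0.119 thousandths (adjusted p = 0.0446, exact permutation p = 0.0397), and the call was lost without any 1 of 7 arrays, chow 1, 2 or 4 or powder 1, 2, 3 or 5 (adjusted p from 0.067 to 0.098). The remaining Prlr probe set (1370789_a_at) was at 0.231 ± 0.0939 thousandths (adjusted p = 0.0907).

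The other narrow members had deposited values that were equal on all arrays to 2 decimals: Folr1 at 7.23, Kl at 6.54 and Enpp2 at 11.29. Folr1 (1387889_at) differed by 0.143 ± 0.0541 thousandths (adjusted p = 0.0754), Kl (1369361_at) by 0.283 ± 0.170 thousandths (adjusted p = 0.220) and Enpp2 (1368536_at) by -0.0662 ± 0.062 thousandths (adjusted p = 0.418). None was called, and the groups overlapped for each. Of the 6 narrow member probe sets, 5 had the higher mean under chow and 1, Enpp2, the lower. Over all narrow probe sets 59.9% had the higher mean under chow, and the median difference was 0.0673 thousandths. After quantile normalization 2 member probe sets were called higher, and after subtraction of array medians all 6 narrow ones were, Enpp2 included. That subtraction raised all differences by 0.0066, more than any narrow member's whole span, so their directions there were set by the rescaling.

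**Figure D2:**
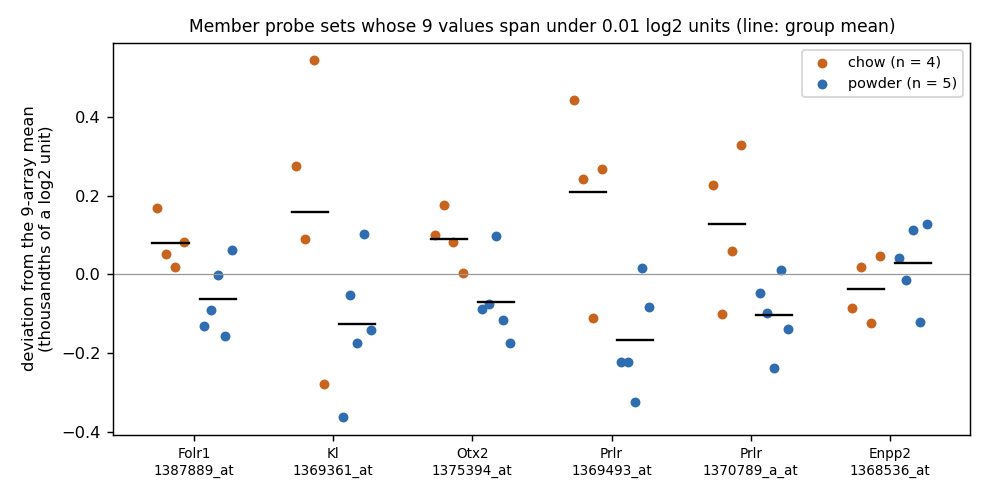
Deviation of each array from the 9-array mean, in thousandths of a log2 unit, for the 6 narrow member probe sets, with chow points left of powder points and a line at each group mean. The whole vertical axis covers about a thousandth of a log2 unit, and the diets overlap for each of the 6.

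No relation between members across arrays passed adjustment. Over the 9 arrays, Pearson's r between Ttr and the wide Otx2 probe set was 0.192 (exact permutation p = 0.633) and Spearman's rho 0.217 (exact permutation p = 0.581). Between Ttr and the wide Prlr probe set r was -0.687 (exact permutation p = 0.03) and rho -0.583 (exact permutation p = 0.108), and between Otx2 and Prlr r was -0.742 (exact permutation p = 0.0176) and rho -0.700 (exact permutation p = 0.0433). With p adjusted over the 12 relations computed, which include the 9 genes described next, none passed (lowest adjusted permutation p 0.180 for r and 0.426 for rho). Without the 2 arrays farthest from the Ttr median, chow 3 and powder 4, r was 0.430 for Ttr with Otx2 and -0.369 for Ttr with Prlr. Without chow 1 and powder 1, the arrays farthest from the Otx2 median, r between Otx2 and Prlr was -0.494. With diet means subtracted the 3 values were 0.380, -0.731 and -0.808. Each diet alone has too few arrays for a correlation.

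Other genes of the choroid plexus, transporters, channels and junction proteins among them, were counted in the same way. Of 48 further genes, 41 were measured, 7 were called higher and 1 lower under chow (19.5%, against 33.5% of all 14217 genes), and all 8 calls were on narrow probe sets (8 of 32 narrow genes, 25.0%, against 30.1% of all narrow genes). The median difference of the 41 was 0.0956 thousandths of a log2 unit, and over all genes it was -0.00719 thousandths. The called narrow genes included Cldn1, a tight junction protein (0.523 ± 0.0765 thousandths, adjusted p = 0.00455), Kcne2, a potassium channel subunit of the apical membrane (0.414 ± 0.0569, adjusted p = 0.004), Car12, a carbonic anhydrase (0.406 ± 0.104, adjusted p = 0.0236), and Wfdc2 (0.309 ± 0.0834, adjusted p = 0.0279). Ace, the water channel gene Aqp1 and the zinc transporter gene Slc39a4 were higher by 0.160 to 0.181 thousandths, and the copper transporter gene Slc31a1 was at -0.130. Leaving out single arrays, 6 of the 8 calls were lost: Car12 without chow 1 or chow 2, Wfdc2 without chow 2 or powder 1, 2, 3 or 4, and Aqp1, Ace, Slc39a4 and Slc31a1 without any 1 of 6 or 7 arrays (chow 2, chow 4, powder 1 and powder 5 for all 4 genes). Cldn1 and Kcne2 were called with any 1 array left out. The count of higher genes became 2 without chow 2, 4 without chow 4, powder 3 or powder 5, and 3 without powder 4. Rescaling changed the split as well. It became 14 higher against 0 lower with quantile normalization and 32 higher against 1 lower with array medians subtracted. Slc31a1 turned to higher under both. The subtraction raised all differences by 0.0066, more than the whole span of any narrow gene of the list. Directions of the narrow genes there were thus set by the rescaling.

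Of the 9 wide genes of that list, 0 were called by limma, and all 9 had the lower mean under chow, with differences from -0.26 to -0.0025. Over the 2414 wide genes 9.28% were called higher and 40.8% lower, with a median difference of -0.12, and the median of the 9 was -0.081. Of all wide probe sets only 34.3% had the higher mean under chow. At an unadjusted exact permutation p under 0.05 there was 1, Slc15a2, a peptide transporter gene (-0.15 ± 0.0502, exact permutation p = 0.0159, adjusted p = 0.0566). In 13 of its 16 alternatives it was not called either (adjusted p up to 0.238). It was called without chow 3 (adjusted p = 0.0386), with array medians subtracted (adjusted p = 0.0243) and when wide probe sets alone were tested (adjusted p = 0.032). The widest were Igf2, the growth factor gene (-0.26 ± 0.244), the sulfate transporter gene Slc13a4 (-0.0025 ± 0.262), Igfbp2, which encodes a binding protein of insulin-like growth factors (-0.027 ± 0.194), the collagen gene Col8a2 (-0.19 ± 0.161) and Ezr, the gene of the membrane-to-actin linker ezrin (-0.079 ± 0.135), with adjusted p from 0.384 to 0.995. The common direction depended on single arrays: 7 of 9 were lower under chow without powder 1 (differences from -0.14 to 0.19) or without chow 1, 6 of 9 without chow 4, and 8 of 9 without chow 3 or powder 3 and under both rescalings. Slc13a4 was among those that turned in each of these settings.

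Powder 1 stood apart for these genes. It was the highest array for 7 of the 9 wide genes, where it was the highest for 13.8% of all wide genes, and it carried the highest value of Otx2 and the second highest of Ttr. Igf2 was 0.83, Slc13a4 0.78, Igfbp2 0.62 and Col8a2 0.57 above the 9-array mean there. Chow 3, with the highest Ttr, was the highest array for 0 of the 9, and the 9 ranged there from -0.48 for Igf2 to 0.10 for Igfbp2, with Htr2c (0.023) and Slc15a2 (0.014) also above their means. Powder 4, with the lowest Ttr, was the lowest array for 1 of the 9. Chow 1 was the lowest for 4 of the 9, and it was also the lowest for 1018 of all 2414 wide genes.

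**Figure D3:**
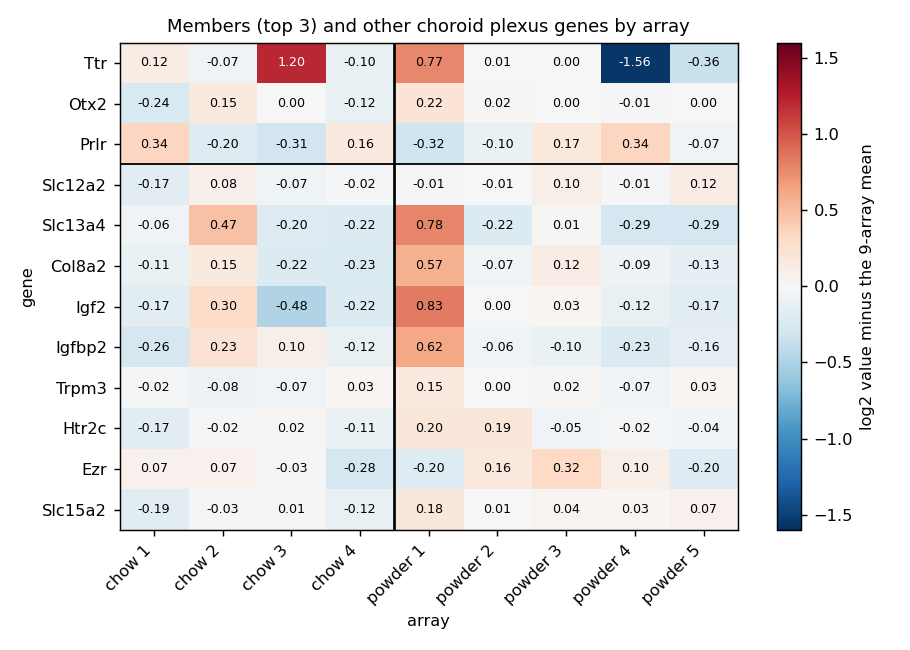
Log2 value minus the 9-array mean for the 3 wide member probe sets (above the horizontal line) and the 9 wide genes of the other choroid plexus list, by array, with chow left of the vertical line and powder right of it. Slc13a4, Col8a2, Igf2 and Igfbp2 are highest on powder 1, while Ttr is highest on chow 3 (1.20) and lowest on powder 4 (-1.56).

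Markers of meningeal fibroblasts, the cells of the membranes that cover the brain, were also highest on powder 1. Of 15 such markers all were measured and 12 were wide, and all 12 had their highest value on powder 1. Their mean level, relative to the 9-array mean, lay between -0.19 and 0.18 on the chow arrays and between -0.13 and 0.61 on the powder arrays, the 0.61 being powder 1 and the next powder array 0.012. The mean of the 9 wide choroid plexus genes was 0.35 on powder 1, -0.10 on chow 3 and -0.077 on powder 4. That mean leaves out the narrow genes among the 41 measured, and whether it follows the amount of choroid plexus was not tested. Igf2 and Slc13a4 are made in meninges as well as in choroid plexus. None of the 15 meningeal markers was called between the diets, and the part of meningeal tissue in the Otx2 and Ttr values was not tested.

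**Figure D4:**
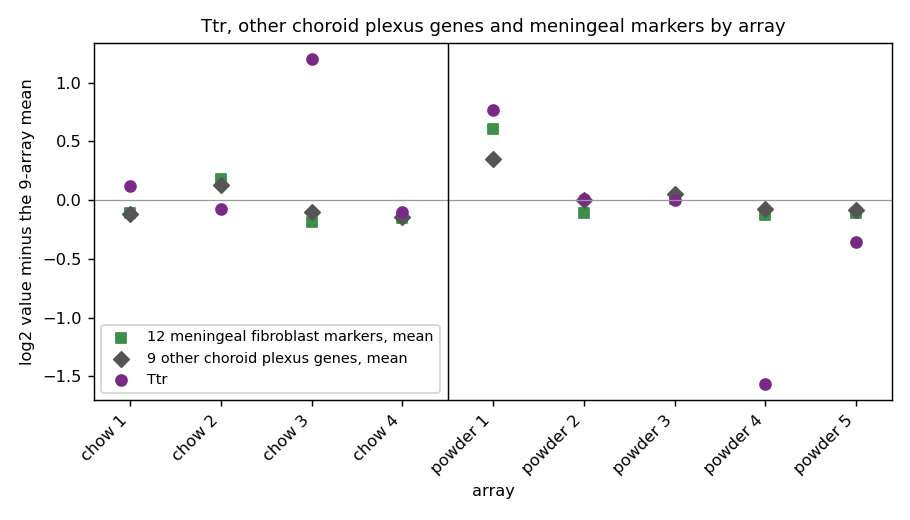
Log2 value minus the 9-array mean on each array for Ttr, for the mean of the 9 wide genes of the other choroid plexus list and for the mean of the 12 wide meningeal fibroblast markers, chow arrays left of the line. All 3 are raised on powder 1 (0.77, 0.35 and 0.61), whereas on chow 3 Ttr is at 1.20 and both means are below 0.

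Setting Ttr against the 9 wide genes, r over the 9 arrays ran from -0.263 for Slc12a2, the sodium-potassium-chloride cotransporter gene, to 0.577 for Igfbp2. Chow 3 and powder 4, the arrays farthest from the Ttr median, were then left out. Over the 7 arrays left, r was 0.777 for Slc13a4, 0.824 for Col8a2, 0.832 for Igf2, 0.767 for Igfbp2 and 0.678 for Trpm3. It was 0.547 for Htr2c, 0.427 for Slc15a2, -0.097 for Ezr and -0.398 for Slc12a2. The arrays left out were picked by their Ttr values, so a rise in r without them cannot show a relation. Of the 7 arrays left, powder 1 had the highest Ttr. Slc13a4, Col8a2, Igf2 and Igfbp2 were also highest on powder 1. Whether any relation holds without powder 1 was not tested. The genes most like Ttr over all 9 arrays, out of 2412 wide genes that are no members, were Gjb6 (r = 0.760), Trappc3 (0.739), Egln3 (0.722), Mdp1 (0.692), Spock1 (0.670), Necab2 (0.664), Neurod1 (0.663), Spp1 (0.662), Retsat (0.660) and Atp5mg (0.652). These were picked as the largest of 2412 values of r, and no p was computed for them. Spearman's rho of the 10 ran from 0.35 for Mdp1 to 0.867 for Retsat, and was 0.383 for Gjb6. The choroid plexus list holds 9 of the 2412 ranked genes, so its absence from these 10 says little. Its best placed gene, Igfbp2, came at rank 20 of 2412, followed by Slc13a4 at rank 119. The last were Ezr at rank 1521 and Slc12a2 at rank 1703, both with r below 0.

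**Figure D5:**
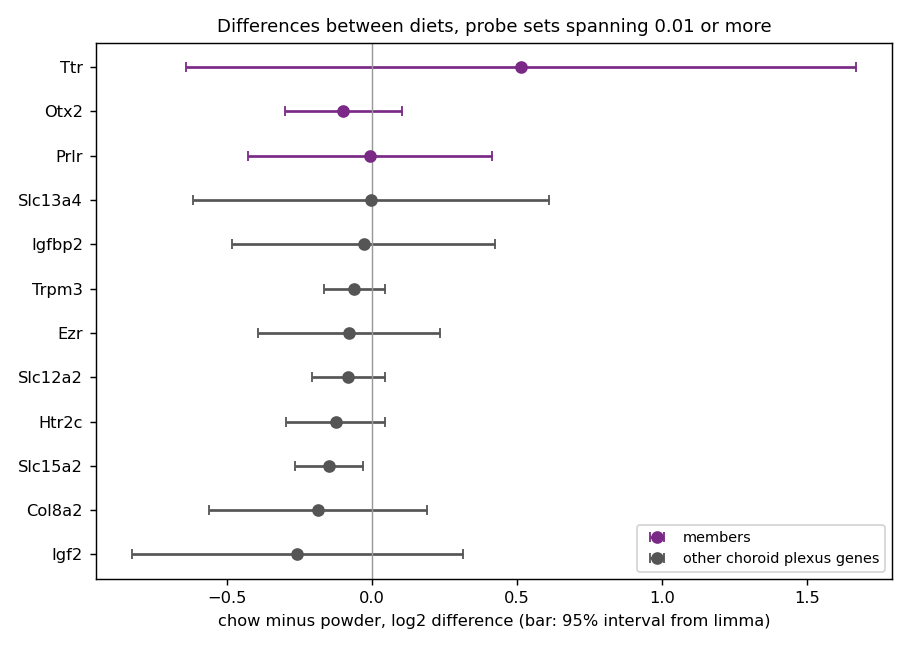
Chow minus powder log2 differences with 95% intervals from limma for the 3 wide member probe sets and the 9 wide genes of the other choroid plexus list. The Ttr interval is the broadest, from -0.64 to 1.67, and 11 of the 12 intervals include 0, the exception being Slc15a2 (adjusted p = 0.0566).

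Genes that work with each member were counted in the same fit, in which 33.5% of all genes, 30.1% of the narrow ones and, of the wide ones, 9.28% higher and 40.8% lower, were called. Of 9 partners of transthyretin in thyroid hormone and retinol handling, 2 were higher and 0 lower under chow. The wide one was Dio2, the deiodinase that activates thyroid hormone, at 6.90 ± 0.046 under chow and 6.75 ± 0.0472 under powder (SD), a difference of 0.15 ± 0.0304 (adjusted p = 0.0107). Rbp4, which encodes retinol-binding protein, differed by 0.00023 (adjusted p = 0.999). Of 11 prolactin receptor pathway genes, 3 were higher and 0 lower. The wide one was Stat3, a transcription factor activated by cytokine receptors, at 8.20 ± 0.0593 under chow and 7.97 ± 0.0617 under powder, a difference of 0.23 ± 0.0395 (adjusted p = 0.00692).

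Of 6 folate receptor and transport genes, 2 were higher and 0 lower, and of 8 Klotho and fibroblast growth factor receptor genes, 0 were higher and 1 lower, all on narrow probe sets. Of 11 genes of lysophosphatidic acid signalling around autotaxin, 3 were higher and 1 lower, again all narrow. The wide receptor gene Lpar1 was at 0.12 (adjusted p = 0.223). Of 13 Otx and homeobox partners, 5 were higher and 0 lower, all narrow. Among the 5 relatives of Clic6, 0 were higher and 2 lower, and the wide one, Clic2, stood at 7.13 ± 0.0291 under chow and 7.32 ± 0.0267 under powder, a difference of -0.19 ± 0.0181 (adjusted p = 0.00185).

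Neighbouring tissue was described by further lists, to be read against the same shares over all genes. Whether the RNA of these markers came from neighbouring tissue or from the thalamus itself was not tested. Of 13 ependymal and cilia genes, whose cells line the ventricle, 1 was higher and 1 lower under chow, both narrow. Of 11 markers of oligodendrocytes and myelin, 0 were higher and 1 lower, Mobp (-0.13 ± 0.0405, adjusted p = 0.0424). Of 13 thalamic relay neuron markers, 0 were higher and 1 lower, Lhx2 (-0.23 ± 0.0759, adjusted p = 0.0489). Differences of the 11 wide relay markers ran from -0.27 to 0.22. Of 8 medial habenula markers 0 were called, and of 9 pineal markers 5 were higher, all narrow. The 1 wide pineal marker, Chrna3, lay the other way at -0.41 ± 0.199 and was not called (adjusted p = 0.139). Of 7 hippocampal and dentate markers 0 were higher and 2 lower, Prox1 (-0.35 ± 0.0707, adjusted p = 0.011) and Zbtb20 (-0.25 ± 0.0556, adjusted p = 0.0148). The remaining wide marker of that list differed by 0.095, in the other direction, and was not called. The Mobp call was lost without any 1 of 7 arrays (all but chow 4 and powder 4) and the Lhx2 call without any 1 of 8 (all but chow 1).

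Of 12 vascular markers, 2 narrow ones were higher and 5 lower. Of the 6 wide ones 4 were lower, where 40.8% of all wide genes were. The wide ones among the lower were the receptor genes Flt1 (-0.41 ± 0.121, adjusted p = 0.0352) and Kdr (-0.19 ± 0.0634, adjusted p = 0.049), the channel subunit Abcc9 (-0.28 ± 0.0855, adjusted p = 0.0392) and the transporter Slco1a4 (-0.15 ± 0.036, adjusted p = 0.0197). The other wide markers were not called, Rgs5 at 0.22 ± 0.0763 (adjusted p = 0.0592) and Pecam1 at -0.020 ± 0.00722 (adjusted p = 0.0635). The calls were lost for Flt1 without any 1 of 6 arrays (all but chow 2, chow 3 and powder 5), for Kdr without any 1 of 8 (all but chow 2) and for Abcc9 without any 1 of 7 (all but chow 1 and chow 3), whereas Slco1a4, like Dio2, Stat3, Clic2, Prox1 and Zbtb20, was called with any 1 array left out. Over the 16 lists together, 189 genes were measured, of which 29 were higher and 15 lower under chow (23.3%, against 33.5% of all 14217 genes). Of the 66 wide ones among them, 2 were called higher and 9 lower, and most were not called. Over all wide genes 9.28% were higher and 40.8% lower, larger shares in both directions.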

How the data were processed

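Total RNA of the thalamus was extracted with TRIzol, cleaned on RNeasy columns and, from 100 ng, turned into biotin-labelled cRNA for 1-colour arrays, per the labels. The authors deposited log2 expression values, 1 for each array and probe set. How they corrected background, summarised probes and normalized arrays is not given in the sources used here, and the log2 scale was read from the range of the values (5.37 to 14.0), so any centring stays unknown. Scanner files were not analysed here, and the number of arrays limits the precision.

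Groups came from the sample titles. After 57 control probe sets were left out, chow was compared with powder over 31042 probe sets in R 4.3.3 with limma 3.58.1 (lmFit, eBayes, no covariates, no further normalization), with Benjamini-Hochberg adjustment over all of them. The fit was tested on simulated data. Genes were named through the platform annotation (20826 probe sets with 1 symbol, 436 with several, 9780 with none listed). Of the resulting 14217 symbols, 14204 are in the RefSeq gene table of GRCr8. List genes were taken by the brightest probe set (highest mean) that lists 1 symbol. One further probe set lists Ttr together with metallothionein symbols and was not used. Correlations over arrays used exact permutation of the pairings.

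The members and the 16 lists were chosen with earlier results of these data known. Named were all members, genes of the choroid plexus list that were called or spanned at least 0.5, up to 4 called wide genes of each other list by size of difference, and the 10 genes most like Ttr by Pearson's r. Further genes (Slc12a2, Slc15a2, Rbp4 and Lpar1 among them) and the split at a span of 0.01 were chosen after values were seen. Alternatives were quantile normalization, subtraction of array medians, a trended robust variance, array weights, omission of the dimmest 25% of probe sets, a block for the replicate number, a gene's median across its probe sets, each array left out in turn and, added later, testing wide probe sets alone.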

Additional observations from a re-analysis of the deposited data

Results flagged for a closer look

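In all, 5 values stood apart from the others of their diet by Dixon's test at the 95% level, among 36 groups of 4 or 5 arrays (18 probe sets of members and of the choroid plexus list, 2 diets each). Chance flags about 1 group in 20. Ttr on chow 3, at 9.53, lay 1.08 above the next chow array, with a gap of 0.832 of the range of its group. The other 4 were all powder 1: Otx2 at 7.35 (next value 7.15), Slc13a4 at 8.05 (next 7.28), Igf2 at 10.3 (next 9.51) and Igfbp2 at 10.0 (next 9.34). Meningeal markers were highest on the same array, as described above, and the cause was not tested.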

How the results depend on the processing

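The Ttr difference stayed above 0 and was not called under any of its 16 alternatives, with values from 0.182 to 0.764 when 1 array was left out (adjusted p from 0.249 to 0.755); the wide Otx2 probe set was below 0 and not called in all 16. The Prlr wide probe set was called in 0 of 15, and its sign changed in 6. Higher and lower calls over all rat probe sets (5558 and 5195) became 15610 and 1854 with quantile normalization, 27206 and 2141 with array medians subtracted, 865 and 2019 when wide probe sets alone were tested, and 3661 to 4879 and 3906 to 4843 with 1 array left out (3661 without powder 1). Member probe sets called higher (1) became 2, 6 and 0 under the first 3 of these, and 0 to 1 with 1 array left out; those called lower stayed 0 throughout. Genes of all lists called higher (29) became 65, 126 and 3 under the same 3, 18 without the dimmest 25% of probe sets, which drops genes, and 15 (without chow 2) to 26 with 1 array left out. Those called lower (15) became 8 by the median over probe sets and 8 to 11 with 1 array left out (8 without powder 1, 3 or 5 and 9 without powder 2). Enpp2 turned to 0.0065 with array medians subtracted, where it was called, and to 0.0022 with quantile normalization, where it was not. Slc31a1 turned, and was called higher, at 0.0188 with quantile normalization and 0.0064 with array medians subtracted. The subtraction raised all differences by 0.0066, more than the whole span of Enpp2 or Slc31a1, so their directions there were set by it. Of the genes not called in any setting, Slc13a4 changed sign in 7 (0.0028 with quantile normalization, 0.0040 with array medians subtracted), Igfbp2 in 3 and Ezr in 1.

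With the replicate block, which has 8 arrays and fewer residual degrees of freedom, 1 probe set was called higher and 18 lower, 0 members were called higher and 0 list genes were called higher or lower. Whether the shared numbers pair the samples is not known. Deviations from the diet means, over wide probe sets, correlated at -0.306, 0.186, -0.344 and -0.164 for numbers 1 to 4. No chow array correlated best with the powder array of its own number. Such values cannot show how the samples were handled. The Ttr difference was 0.482 in that fit (adjusted p = 0.492). The dimmest 25% of probe sets included narrow members (Kl and 1 of Prlr) and the wide Prlr probe set, which have no value there.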

Other observations

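Ttr was 1 of 5 genes with the largest standard deviation within diets among the 14217 genes, and the other 4 were Avp (1.11), Oxt (1.11), Slc6a3 (0.937) and Pmch (0.919), against 0.759 for Ttr. Avp and Oxt encode the hypothalamic hormones vasopressin and oxytocin, Pmch the precursor of melanin-concentrating hormone and Slc6a3 the dopamine transporter, so all 4 are known chiefly from neighbouring brain regions. They were chosen after their values had been seen, and no cause of the spread was tested.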
